A study of Mus musculus with 23 samples.

Results

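The effect of urolithin A was compared between 2 genotypes of aged Alzheimer's disease mice, gene by gene, in the hippocampus. For each gene the effect in AD mice was the mean of treated mice minus the mean of vehicle mice. The effect in ADP mice, which also lack 1 copy of Polb, was the same difference in that genotype. The interaction was the effect in ADP mice minus the effect in AD mice, so a value below 0 means a lower effect in ADP mice. The interaction was formed for all of the 768 genes in the table that had values, 748 genes, and 619 of them passed a filter on low values and were tested. The interaction rests on 19 of the 23 mice of the series.

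All mice were 18 months old and on the C57BL6/J background. AD mice carried the transgene Tg(APPSwe,tauP301L)1Lfa, human APP and tau with disease mutations, together with 1 further knock-in allele. ADP mice carried the same alleles and were also heterozygous for Polbtm1Rsky. Treated mice of both genotypes were gavaged with urolithin A over 5 months, at a daily dose of 200 mg/kg, while the other mice were given vehicle. There were 5 AD mice on vehicle (3 females, 2 males), 5 treated AD mice (2 and 3), 4 ADP mice on vehicle (1 and 3) and 5 treated ADP mice (3 and 2). A further 4 wild-type mice on vehicle gave a reference level, and the series held no treated wild-type mice. All 4 groups of the interaction carried these transgenes and that allele, so urolithin A was not measured without them.

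Urolithin A is made by gut bacteria from ellagitannins of plant foods and is known for promoting mitophagy, the removal of damaged mitochondria by autophagy. Polb encodes DNA polymerase beta, which fills single-nucleotide gaps in base excision repair. The panel covers energy, amino acid and nucleotide metabolism with growth and immune signalling. In the brain these pathways meet in the neuron, which takes up lactate from glia for its mitochondria and makes N-acetylaspartate there from aspartate and acetyl-CoA.

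Transcripts were counted with nCounter, an assay that counts colour-coded probes without amplification, and values are log2 of normalized counts. Inferred total counts were 426452 to 692109 per mouse except in 2 treated ADP females, replicates 3 and 5, which had 246113 and 186016. Intervals and tests below rest on the spread between mice, which the labels give as separate animals. The neuronal gene Grin1 was between 9.63 and 10.35 in every mouse. Of 16 neuronal markers 4 had values, of 10 astrocyte markers 1 and of 11 oligodendrocyte markers 1, so the cell makeup of the samples was measured by few genes. Mapt, the tau gene, averaged 9.80 ± 0.06 (SD, n = 4) in wild-type mice and between 10.15 and 10.41 in the 4 groups with the tau transgene. Whether its probe also reads the human transgene is not given in the sources used here, so Mapt is an uncertain neuronal marker in these mice. Polb was not among the genes analysed here. In bulk tissue, fewer cells of a type and less RNA per cell cannot be told apart.

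No gene passed the test of the interaction, and the largest group of opposite responses was higher with urolithin A in AD mice and lower in ADP mice. Limma called 0 of 619 genes (percent called 0) at an adjusted p under 0.05, with a smallest adjusted p of 0.883. Ordinary regression per gene and limma with array weights also called 0. At an unadjusted p under 0.05 there were 31 genes (5.01%), where such a threshold passes 30.95 of 619 if no gene differs. Of these, 26 (4.2%) had an interaction below 0 and 5 (0.808%) one above 0, and in 30 of the 31 the effects in the 2 genotypes had opposite signs. Choosing genes by a large difference between 2 effects that are mostly near 0 favours opposite signs. The 30 of 31 is therefore no separate result. Neither effect alone passed for any gene: 0 of 619 in AD mice and 0 in ADP mice, with 21 and 40 at an unadjusted p under 0.05 (array weights called 1 in AD mice). The median standard error (SE) of the interaction was 0.226 log2 and the median 95% interval reached 0.47 log2 to each side. For 67.5% of genes the interval lay within 1 log2 of no difference, and for 35.1% within 0.5 log2.

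The signs of both effects sort the tested genes into 4 kinds. Both effects were above 0 in 266 genes and both below 0 in 82. They were opposite in 266 genes (43% of those tested): 181 (29.2%) were above 0 in AD and below 0 in ADP mice, and 85 (13.7%) the other way. The remaining 5 had an effect of 0 in 1 genotype. With both effects of at least 0.2 log2, 15 genes were higher in AD and lower in ADP, 7 were lower in AD and higher in ADP, 77 were higher in both and 3 lower in both. At 0.5 log2 there were 0 genes with opposite effects and 16 were higher in both. Across genes, which are not independent of each other, the 2 effects had a Pearson r of 0.41 and a Spearman rho of 0.24. The effects come from separate mice in every group.

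The excess of one direction among the opposite genes depends on the scaling. The median effect was 0.07 in AD and 0.02 in ADP mice, the median interaction was -0.06, and the interaction was below 0 in 62% of genes. After quantile normalization the interaction was below 0 in 51.7% of genes and the split was 130 genes higher in AD and lower in ADP against 136 the other way. Centring each mouse on its median gave 65.9% below 0, and it lowered the median effect in ADP mice from 0.02 to -0.08. Genes with opposite effects were found at all levels, with 148 of 310 in the upper part by mean level and 118 of 309 in the lower. The 129 genes with values that were not tested had interactions from -1.24 to 2.01, against -1.08 to 1.21 in tested genes.

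**Figure D1:**
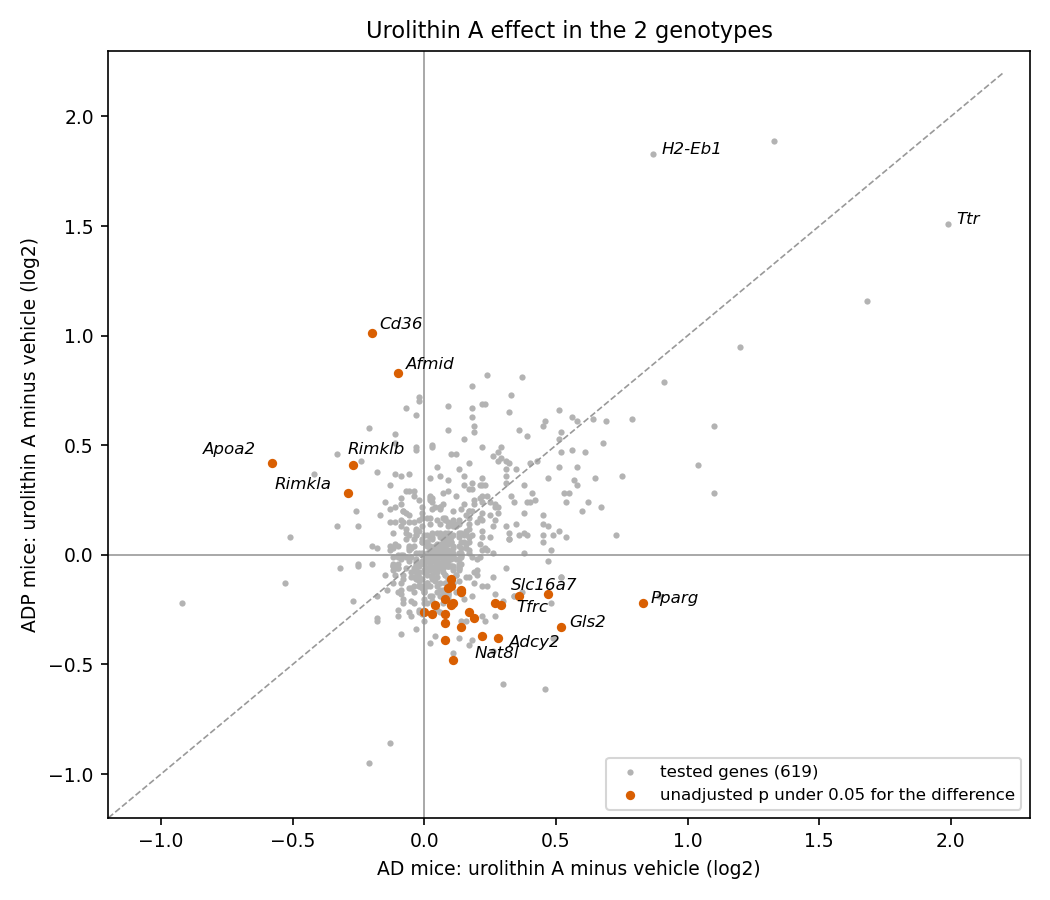
Urolithin A effect (treated minus vehicle, log2 normalized counts) in AD mice on the horizontal axis and in ADP mice on the vertical axis, 1 point per tested gene; orange points had an unadjusted p under 0.05 for the interaction and the dashed line marks equal effects. Most orange points lie in the lower right, higher in AD and lower in ADP mice, and the genes with the largest effects, such as Ttr and H2-Eb1, are above 0 in both genotypes.

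Lactate and pyruvate transport held the gene with the smallest p. Slc16a7 encodes MCT2, the high-affinity monocarboxylate transporter by which neurons take up lactate. In AD mice it was at 7.57, 7.71, 7.76, 7.87 and 7.45 on vehicle and at 7.97, 7.68, 7.99, 8.10 and 7.96 on urolithin A. In ADP mice it was at 7.65, 7.67, 8.07 and 7.88 on vehicle and at 7.68, 7.65, 7.63, 7.53 and 7.51 on urolithin A. All 5 treated AD mice were above the mean of their vehicle mice and all 5 treated ADP mice below theirs, although the ranges of treated and vehicle mice overlapped in both genotypes. The effect was 0.27 (SE 0.103) in AD and -0.22 (SE 0.110) in ADP mice, or 1.20 and 0.86 times the vehicle level. The interaction was -0.49 (SE 0.151, 95% interval -0.80 to -0.17, adjusted p = 0.883 by limma). On vehicle the ADP mean was 0.15 above the AD mean, and with urolithin A 0.34 log2 separated them in the other direction (ADP minus AD -0.34). Wild-type mice averaged 7.85 ± 0.17 (SD, n = 4).

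The other members of the list did not share 1 pattern. Of its 7 tested genes, 5 had an interaction below 0, with a median of -0.16 against -0.06 over all tested genes (-0.05 against -0.01 after quantile normalization), and 4 had opposite signs. Slc16a3 (MCT4, a lactate exporter of glia) was at 0.27 in AD and -0.18 in ADP mice, while Slc16a1 (MCT1, of endothelium and glia) was at -0.04 and 0.27. The mitochondrial pyruvate carrier subunit Mpc1 was at 0.17 and 0.01, and its partner Mpc2 at 0.05 and -0.03. Slc16a8, a transporter of choroid plexus and retinal pigment epithelium, was at 1.10 and 0.59.

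The glutamine, glutamate and N-acetylaspartate list held opposite responses in both directions. Of its 14 tested members 9 had opposite signs, 64.3% against 43% of all tested genes. The interaction was below 0 in 7 and above 0 in 7, with a median of 0.08 (-0.06 without replicate 5 of the AD vehicle group), and 4 members were at an unadjusted p under 0.05. The enzyme that makes N-acetylaspartate was higher with urolithin A in AD mice, and both enzymes that join N-acetylaspartate to glutamate were lower. In ADP mice each of the 3 had the other sign.

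Nat8l encodes the neuronal N-acetylaspartate synthase. It was at 11.19, 11.40, 11.83, 11.34 and 11.11 in AD vehicle mice and at 11.66, 11.08, 11.42, 12.16 and 11.67 in treated AD mice. ADP vehicle mice were at 11.81, 11.50, 11.52 and 11.39 and treated ADP mice at 11.06, 11.15, 11.11, 11.39 and 11.20. The AD groups overlapped widely, whereas the highest treated ADP mouse only reached the lowest ADP vehicle mouse. Its effects were 0.22 (SE 0.152) and -0.37 (SE 0.162), and its interaction was -0.60 (SE 0.222, interval -1.06 to -0.13, adjusted p = 0.883 by limma). Without replicate 4 of the treated AD group, the highest mouse, the interaction was -0.46.

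Rimklb and Rimkla encode the synthetases that make N-acetylaspartylglutamate (NAAG), a peptide transmitter. Rimklb was at 7.47, 7.08, 6.83, 7.42 and 7.25 in AD vehicle mice and at 7.10, 7.47, 6.74, 6.51 and 6.88 in treated AD mice. In ADP mice it was at 6.37, 7.11, 6.95 and 7.14 on vehicle and at 7.16, 7.36, 7.42, 7.64 and 6.92 on urolithin A. One treated AD mouse equalled the highest AD vehicle mouse, and 4 of 5 treated ADP mice were above every ADP vehicle mouse. The effects were -0.27 (SE 0.183) and 0.41 (SE 0.194), and the interaction was 0.68 (SE 0.266, interval 0.12 to 1.23, adjusted p = 0.883 by limma). Without replicate 1 of the ADP vehicle group, the lowest mouse, the interaction was 0.50.

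Rimkla was at 6.50, 6.49, 6.65, 6.96 and 7.48 in AD vehicle mice and at 6.17, 6.76, 6.63, 6.69 and 6.38 in treated AD mice. ADP vehicle mice were at 6.46, 6.31, 6.74 and 6.60 and treated ADP mice at 6.56, 6.40, 6.73, 7.19 and 7.16. All 5 treated AD mice were below the AD vehicle mean, which replicate 5 raised, and 4 of 5 treated ADP mice were above theirs. The interaction was 0.57 (SE 0.271, interval 0.01 to 1.13, adjusted p = 0.975 by limma), from effects of -0.29 and 0.28. Rimkla, Rimklb and Apoa2 were the only 3 tested genes with effects below 0 in AD and above 0 in ADP mice that were each over 1 SE, against 23 genes the other way. After quantile normalization these counts were 16 and 13, so this imbalance depends on the scaling too.

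The 250 bases before the start of both NAAG synthetase genes are shown because the 2 genes had the same pair of signs. They are RefSeq promoter windows on GRCm38.p6, both read 5′ to 3′ on the minus strand, at chr4:119492599-119492848 for Rimkla and chr6:122486306-122486555 for Rimklb. Capitals mark the GC box GGGCGG, searched on both strands.
Rimkla: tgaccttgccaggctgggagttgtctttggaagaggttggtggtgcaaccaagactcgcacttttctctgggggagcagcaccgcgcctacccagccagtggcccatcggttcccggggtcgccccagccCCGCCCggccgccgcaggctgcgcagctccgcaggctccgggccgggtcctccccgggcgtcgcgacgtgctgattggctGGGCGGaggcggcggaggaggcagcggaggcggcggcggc
Rimklb: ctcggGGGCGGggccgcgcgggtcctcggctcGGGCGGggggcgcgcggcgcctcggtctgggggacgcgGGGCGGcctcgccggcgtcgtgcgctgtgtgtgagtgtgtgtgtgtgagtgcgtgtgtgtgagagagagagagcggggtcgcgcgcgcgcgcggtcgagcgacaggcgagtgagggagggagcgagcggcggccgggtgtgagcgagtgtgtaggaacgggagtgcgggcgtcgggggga
There were 2 matches in the Rimkla window and 3 in the Rimklb window. The letters occur in such a window of 9555 of 27025 genes (35.4%), so a match describes the sequence and no more.

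Other genes of the NAAG and glutamate cycle showed mixed signs. Folh1, whose product cleaves NAAG, was below its vehicle mean in both genotypes (-0.53 in AD, -0.13 in ADP, interaction 0.40, SE 0.321). Naalad2, a second NAAG peptidase, was at 0.21 and 0.17, and Aspa, the oligodendrocyte enzyme that breaks down N-acetylaspartate, at 0.03 and -0.06. Gls2, a glutaminase that releases glutamate from glutamine, had the signs of Nat8l, at 0.52 and -0.33 (interaction -0.85, SE 0.375, adjusted p = 0.883 by limma). Glud1, glutamate dehydrogenase, was on the other side at -0.09 and 0.16 (interaction 0.25, SE 0.130). Glul, the astrocytic glutamine synthetase, was lower in both, at -0.05 and -0.28. Nat8l, Rimkla, Rimklb and Glud1 kept the signs of both effects under median centring and quantile normalization.

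**Figure D2:**
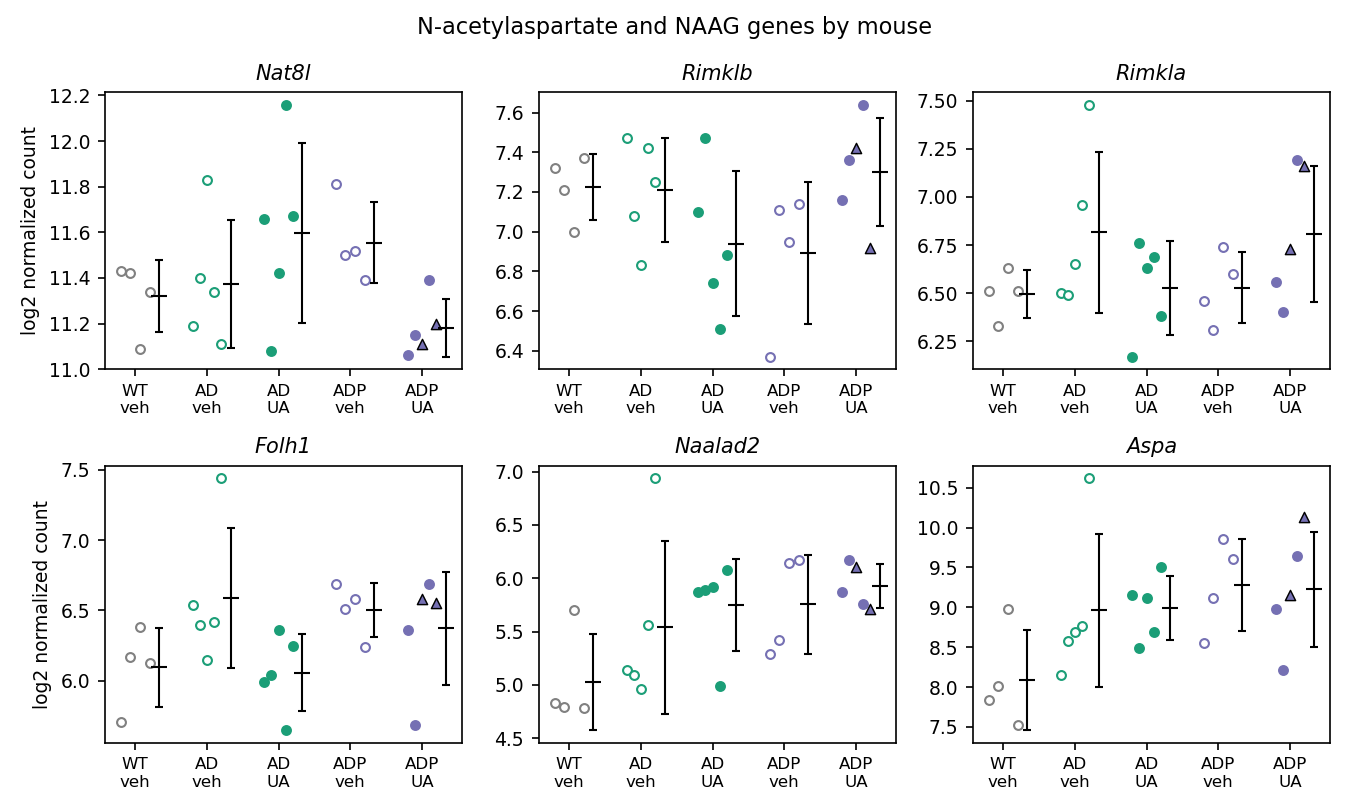
log2 normalized counts of N-acetylaspartate and NAAG genes in each mouse (open circles vehicle, filled symbols urolithin A, triangles the 2 treated ADP mice with low inferred totals, bars group mean and SD). Nat8l is higher with treatment in AD and lower in ADP mice, Rimklb and Rimkla have the reverse signs, and Folh1, Naalad2 and Aspa do not share either pattern.

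Of the 4 neuronal markers with values, Nat8l and Slc16a7 had interactions below 0, and Mapt (0.27) and Gad1 (0.21) above 0. Their summed normalized counts, Mapt included, were 5879 to 7513 in AD vehicle, 5969 to 9004 in treated AD, 6077 to 6757 in ADP vehicle and 5676 to 7166 in treated ADP mice. The 4 ranges overlapped. Grin1, an NMDA receptor subunit gene of neurons that is on no list, was at -0.01 in AD and -0.27 in ADP mice (interaction -0.26, SE 0.155), with 0 of 5 treated ADP mice above the vehicle mean. The part of neuronal RNA content in the results for Nat8l and Slc16a7 was not tested.

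The transferrin receptor and a set of signalling genes had the pattern of Slc16a7. Tfrc, which brings iron into cells, was at 9.64, 9.80, 9.92, 10.16 and 9.94 in AD vehicle and at 10.16, 9.98, 10.22, 10.26 and 10.30 in treated AD mice. It was at 10.72, 10.12, 10.08 and 10.04 in ADP vehicle and at 9.80, 9.99, 9.95, 10.44 and 9.89 in treated ADP mice. In AD mice 5 of 5 treated mice were above the vehicle mean, and in ADP mice 4 of 5 were below every vehicle mouse. Its effects were 0.29 and -0.23 and its interaction was -0.52 (SE 0.189, interval -0.91 to -0.12, adjusted p = 0.883 by limma), or -0.36 without replicate 1 of the ADP vehicle group, the highest mouse.

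Adcy2 encodes a brain adenylate cyclase. It was at 9.35, 9.77, 9.96, 9.70 and 8.73 in AD vehicle and at 9.90, 9.43, 9.65, 10.04 and 9.87 in treated AD mice. ADP mice were at 9.61, 9.79, 9.95 and 9.52 on vehicle and at 9.30, 9.57, 9.39, 9.40 and 9.04 on urolithin A. Replicate 5 of the AD vehicle group was far below the others, and 4 of 5 treated ADP mice were below every ADP vehicle mouse. The effects were 0.28 and -0.38, and the interaction of -0.65 (SE 0.248, adjusted p = 0.883 by limma) became -0.46 without that AD mouse.

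Most growth signalling genes had opposite signs in the 2 genotypes on the values as deposited. Of 24 tested genes of PI3K-AKT and MAPK signalling, 16 had an interaction below 0 and 15 had opposite signs (62.5%), 11 of them higher in AD and lower in ADP, with 6 members at an unadjusted p under 0.05. The median effects were 0.02 in AD and -0.07 in ADP mice, and the median interaction was -0.11 (-0.05 after quantile normalization). Pik3r2 and Pik3cb, a regulatory and a catalytic subunit of phosphoinositide 3-kinase, were at 0.10 and -0.23 and at 0.10 and -0.14, with interactions of -0.33 (SE 0.125) and -0.25 (SE 0.103). The kinase gene Braf (0.03 and -0.27) had an interaction of -0.30. The small effect of Braf in AD mice was -0.05 after median centring and -0.04 after quantile normalization. After the same 2 steps the effects in AD mice were 0.03 and 0.05 for Pik3r2 and 0.03 and 0.04 for Pik3cb. Since the list median of 0.02 in AD mice was below the 0.07 of all tested genes, the share of opposite signs depends on the scaling. Egfr, a growth factor receptor, was on the other side at -0.04 and 0.29. Arf5, a small GTPase of Golgi transport, was at 0.14 and -0.16 (interaction -0.30, SE 0.129).

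Nuclear pore, transcription and chromatin genes were mainly lower with treatment in ADP mice, with effects near 0 in AD mice. Their 10 tested members had median effects of 0.02 and -0.20 and a median interaction of -0.20 (-0.10 after quantile normalization), with 8 below 0. In ADP mice 6 of the 10 were at an unadjusted p under 0.05, against 40 of 619 genes, and none in AD mice. Ranbp2, a filament protein of the nuclear pore, was at 10.20 to 10.59 in AD vehicle, 10.29 to 10.59 in treated AD, 10.34 to 10.59 in ADP vehicle and 10.15 to 10.36 in treated ADP mice. Its interaction was -0.27 (SE 0.104, adjusted p = 0.883 by limma), and 5 of 5 treated ADP mice were below the vehicle mean. The effect of Ranbp2 in AD mice was 0.08, but 0.00 after median centring and 0.04 after quantile normalization. Ncor1, a corepressor of nuclear receptors, was at 0.00 in AD and -0.26 in ADP mice (interaction -0.26, SE 0.102). Smad3, a mediator of TGF-beta signals, was at 0.11 and -0.48, and its partner Smad4 at -0.10 and -0.28.

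Several proteasome genes had smaller effects of the same signs. Psma7, an alpha subunit of the core particle, was at 10.10, 10.09, 10.25, 10.19 and 10.07 in AD vehicle and at 10.29, 10.17, 10.21, 10.18 and 10.28 in treated AD mice. It was at 10.28, 10.38, 10.35 and 10.20 in ADP vehicle and at 10.14, 10.27, 10.04, 10.25 and 10.04 in treated ADP mice. All 5 treated AD mice were above and all 5 treated ADP mice below the vehicle mean, with overlap in both genotypes. The effect in AD mice was 0.09, but 0.01 after median centring and 0.03 after quantile normalization. The 2 lowest treated ADP mice were those with low inferred totals, and without them the interaction of -0.24 (SE 0.0882, adjusted p = 0.883 by limma) was -0.17. Of 8 tested members of the ubiquitin and proteasome list 6 had an interaction below 0 and 5 were higher in AD and lower in ADP mice. The list's median interaction was -0.11, and -0.05 after quantile normalization. Psmb3, a beta subunit, was at 0.03 and -0.10, while Psme2, a subunit of the immune-regulated activator, was at 0.03 and 0.21. The effect of Psmb3 in AD mice was -0.04 after median centring and -0.02 after quantile normalization.

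**Figure D3:**
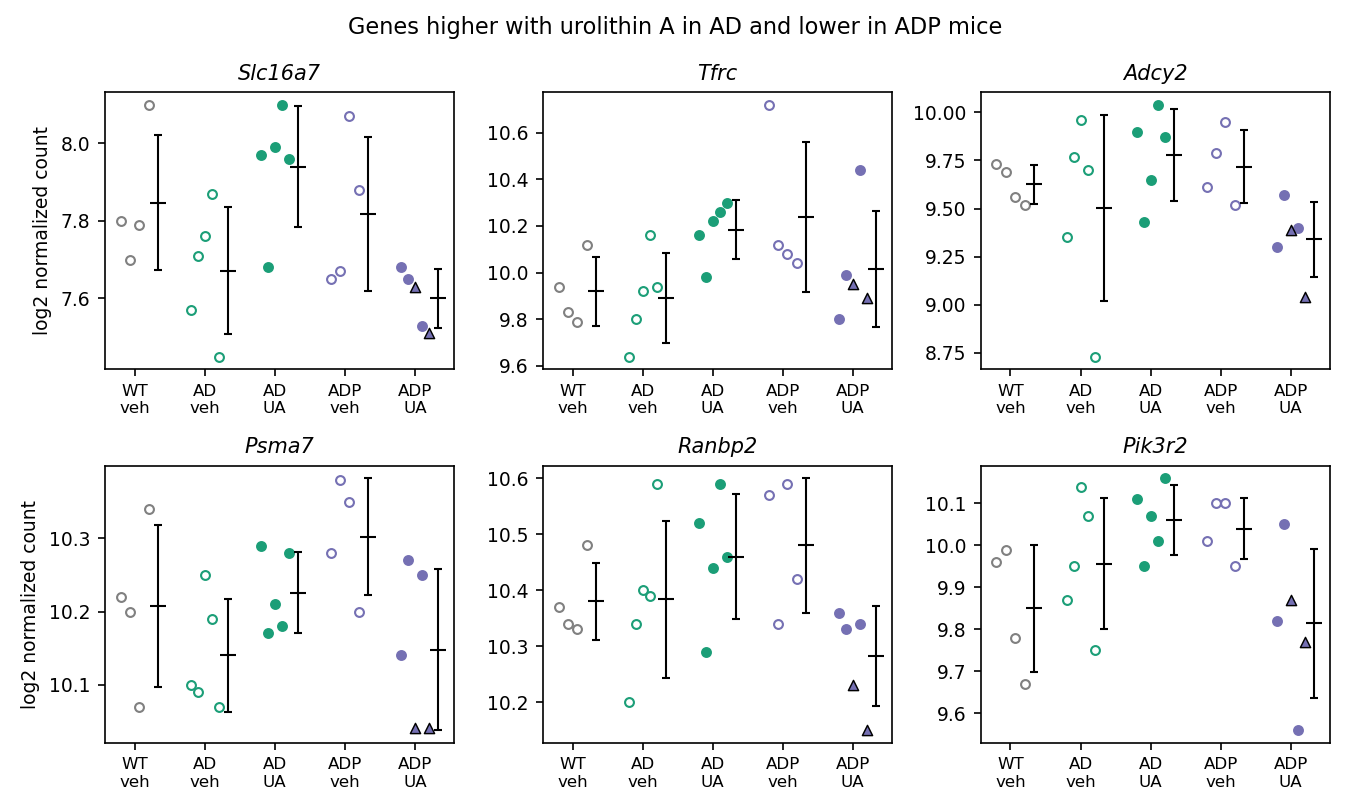
log2 normalized counts in each mouse for 6 genes named by the smallest p or by opposite effects (open circles vehicle, filled symbols urolithin A, triangles the 2 treated ADP mice with low inferred totals, bars group mean and SD). On the values as deposited, treated AD means are above and treated ADP means below the vehicle mean of the same genotype in each panel. Single mice overlap.

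Autophagy and mitophagy genes, the process urolithin A is known for, mostly had opposite signs in the 2 genotypes on the values as deposited. Of 8 tested members all 8 were above 0 in AD mice and 2 in ADP mice, 7 had an interaction below 0 and 6 had opposite signs (75% against 43% of all tested genes). The differences were small: the medians were 0.06 in AD, -0.04 in ADP and -0.15 for the interaction (-0.11 after quantile normalization), and 1 member was at an unadjusted p under 0.05. That gene, Map1lc3b, encodes the LC3 protein of the autophagosome membrane. It was between 10.09 and 10.47 in AD vehicle, 10.17 and 10.44 in treated AD, 10.13 and 10.36 in ADP vehicle and 10.06 and 10.19 in treated ADP mice. Its interaction was -0.20 (SE 0.0978, interval -0.41 to -0.00, adjusted p = 0.975 by limma). Rb1cc1, a scaffold of the complex that starts autophagy, was at 0.07 and -0.18 (interaction -0.25, SE 0.127), and its effect in AD mice was -0.01 after either median centring or quantile normalization. Gabarap, a relative of LC3, was at 0.26 and 0.01. After median centring the effect of Map1lc3b in AD mice was 0.02. Over all tested genes the median effect in AD mice was 0.07, and -0.00 after median centring. With a list median of 0.06, the signs in AD mice, and so the share of opposite signs, depend on the scaling. That share was counted only on the values as deposited.

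The nutrient sensors upstream of autophagy had a similar share of opposite signs on the values as deposited. Of 21 tested mTOR and AMPK genes 16 had an interaction below 0 and 14 had opposite signs (66.7%), 11 of them higher in AD and lower in ADP mice, with a median interaction of -0.11 (-0.05 after quantile normalization). Prkaa2, a catalytic subunit of AMPK, was at 7.55, 7.59, 8.06, 8.03 and 7.56 in AD vehicle and at 8.25, 7.79, 7.99, 8.43 and 8.14 in treated AD mice. It was at 8.34, 7.83, 7.92 and 7.53 in ADP vehicle and at 7.69, 8.21, 7.42, 7.86 and 7.39 in treated ADP mice. Its 2 lowest treated ADP mice were again those with low inferred totals. The interaction was -0.55 (SE 0.247, adjusted p = 0.883 by limma) with all mice and -0.35 without these 2, where the effect in ADP mice changed sign. The partner subunit Prkaa1 was at 0.05 and -0.06, Mtor at 0.08 and -0.05, and its substrate gene Rps6kb1 at 0.03 and -0.21 (interaction -0.24, SE 0.119). The effect of Rps6kb1 in AD mice was -0.04 after median centring and -0.01 after quantile normalization. The list median in AD mice was 0.03, below the 0.07 of all tested genes, so this share of opposite signs depends on the scaling too.

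Genes lower with urolithin A in AD and higher in ADP mice were fewer and came from several pathways. Apoa2, a lipoprotein component, was at 6.24, 4.75, 5.56, 5.30 and 4.14 in AD vehicle and at 4.38, 4.49, 4.71, 4.50 and 5.03 in treated AD mice. It was at 4.11, 4.69, 4.46 and 4.98 in ADP vehicle and at 4.17, 4.81, 5.27, 5.11 and 5.55 in treated ADP mice. All 5 treated AD mice were below the vehicle mean, whose mice spread by over 2 log2, and 4 of 5 treated ADP mice were above theirs. The interaction was 1.00 (SE 0.453, adjusted p = 0.883 by limma), and it was 0.71 without the 2 low-count mice and 0.74 without replicate 1 of the AD vehicle group. Shmt2, the mitochondrial serine hydroxymethyltransferase of one-carbon metabolism, was at -0.11 and 0.22, and its cytosolic relative Shmt1 at 0.16 and -0.30. Slc2a5, a fructose transporter of microglia, was at -0.42 and 0.37, and Nod2, a sensor of bacterial peptidoglycan, at -0.33 and 0.46. Both were low and variable genes, with interaction SEs of 0.529 and 0.520. Mapt was at -0.11 and 0.15 (interaction 0.27, SE 0.213), and its effect in ADP mice changed sign without replicate 1 of the ADP vehicle group, where the interaction was 0.08.

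Several of the largest interactions above 0 joined an effect of 0.48 to 1.01 in ADP mice with one between -0.20 and 0.09 in AD mice. Afmid, kynurenine formamidase, was between 4.49 and 5.08 in treated ADP mice and between 3.28 and 4.56 in ADP vehicle mice, an effect of 0.83 against -0.10 in AD mice (interaction 0.93, SE 0.383, adjusted p = 0.883 by limma). Cd36, a scavenger receptor for lipids, had effects of 1.01 in ADP and -0.20 in AD mice (interaction 1.21, SE 0.549). The cytosolic isocitrate dehydrogenase Idh1 was at 0.48 and -0.03 (interaction 0.51, SE 0.268, or 0.32 without replicate 1 of the ADP vehicle group), and the survival gene Bcl2 at 0.68 and 0.09. Tecr, an enzyme of very-long-chain fatty acid synthesis, had an interaction of 0.15 (SE 0.0811), and its treated ADP mice, at 11.87 to 12.14, were all above the vehicle mice at 11.68 to 11.84.

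Mitochondrial respiration was the largest energy list, with small effects. Of 29 tested genes 26 were above 0 in AD mice and 17 in ADP mice, 22 had an interaction below 0, and 13 had opposite signs (44.8%), 11 of them higher in AD and lower in ADP. The median interaction was -0.08, and 0.01 after quantile normalization, so its direction depended on the scaling. Cox8a, a subunit of cytochrome oxidase, had the smallest p: its treated ADP mice were at 8.03, 8.06, 7.86, 7.61 and 7.82 against 8.16, 7.96, 8.31 and 7.96 on vehicle, and its effects were 0.11 in AD and -0.22 in ADP mice (interaction -0.33, SE 0.143, adjusted p = 0.883 by limma). Ndufa13, a complex I subunit, was at 0.12 and -0.17. Other complex I and complex IV subunits stayed between -0.18 and 0.11 in their interactions.

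Carbon metabolism had 10 of 20 pyruvate and TCA cycle genes with opposite signs, a median effect of 0.06 in AD and -0.01 in ADP mice, and a median interaction of -0.08 (-0.01 after quantile normalization). The 2 members of smallest p lay on opposite sides: Idh1, above, and Pdk1, an inhibitory kinase of pyruvate dehydrogenase, which was at 0.24 in AD and 0.02 in ADP mice (interaction -0.23, SE 0.130). The 3 subunits of a mitochondrial isocitrate dehydrogenase, Idh3a, Idh3b and Idh3g, had interactions of -0.09, -0.10 and -0.14. Idh2, also mitochondrial, was at -0.01 in AD and 0.19 in ADP mice (interaction 0.20). In glycolysis, 9 of 22 genes had opposite signs, with a median interaction of -0.09. Tigar, a phosphatase that diverts glucose to the pentose phosphate pathway, was at 0.20 and -0.09, and hexokinase Hk2 at 0.02 and -0.40. Rbks, ribokinase, was higher in 5 of 5 treated AD mice and lower in 5 of 5 treated ADP mice than the vehicle means, at 0.26 and -0.44 (interaction -0.70, SE 0.362, adjusted p = 0.975 by limma), with replicate 5 of the AD vehicle group highest at 6.50. Rpia, the isomerase of the pentose phosphate pathway, was at 0.16 and -0.10, and its effect in AD mice was -0.01 after quantile normalization. The 8 tested members of the pentose phosphate list had a median interaction of -0.04.

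Genes of lipid synthesis had more interactions above 0. Of 9 tested genes of fatty acid and sterol synthesis 7 were above 0, with a median of 0.08, which was -0.02 without replicate 5 of the AD vehicle group. Scd1, stearoyl-CoA desaturase, was at -0.13 and 0.15 and Fasn, fatty acid synthase, at -0.01 and 0.06, while Hacd2, a dehydratase of the elongation cycle, was at 0.10 and -0.12. Fatty acid oxidation had 4 genes on each side of 0: Acaa2, a mitochondrial thiolase, was at 0.03 and 0.49, and Echs1, enoyl-CoA hydratase, at 0.05 and -0.14.

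Amino acid synthesis genes had an interaction above 0 in 14 of 21, with a median of 0.04, which was -0.03 without the same AD mouse. The argininosuccinate lyase gene Asl was at -0.07 in AD and 0.29 in ADP mice (interaction 0.36, SE 0.209), and the glutamine transporter Slc1a5 at 0.19 and 0.56. In nucleotide metabolism 17 of 33 genes (51.5%) had opposite signs, 9 and 8 in the 2 directions. Uck2, a uridine-cytidine kinase, was at 0.19 and -0.29 (interaction -0.48, SE 0.197, adjusted p = 0.883 by limma) and -0.32 without replicate 3 of the treated ADP group, 1 of the 2 low-count mice. Gmpr, GMP reductase, was at 0.08 and -0.31, and Ada, adenosine deaminase, at -0.02 and 0.70.

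DNA repair genes bear on the Polb allele that separates the genotypes, but the panel held few of them. Of 57 listed genes 9 were tested, 7 had an interaction below 0 and 5 had opposite signs, with medians of 0.14 in AD, 0.02 in ADP and -0.20 for the interaction (-0.21 after quantile normalization). Trp53, the p53 gene, was at 0.14 and -0.18 (interaction -0.32, SE 0.241), and -0.20 without replicate 3 of the AD vehicle group. Fancd2, of crosslink repair, was at 0.18 and -0.39 (interaction -0.57, SE 0.351), and -0.37 without replicate 1 of the treated ADP group, while Pole, the leading-strand polymerase, was at -0.06 and 0.37. None of the 9 was at an unadjusted p under 0.05. Of 6 tested cell cycle genes 4 were above 0 in both genotypes, with medians of 0.38 and 0.15. The S and G2 cyclin gene Ccna2 was at 0.47 and -0.18 (interaction -0.66, SE 0.298, adjusted p = 0.883 by limma). Cdc20, an activator of mitotic exit, was at 1.10 and 0.28. Without the 2 low-count mice the cell cycle median moved from -0.17 to -0.67.

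Immune and lysosomal genes mostly had effects of the same sign in both genotypes. All 8 tested cytokine genes were above 0 in both, and of 14 lysosomal genes 13 were above 0 in both and 1, the sialidase Neu1 (0.19 and -0.08), had opposite signs (7.14%). The median lysosomal effects were 0.20 and 0.17. Antigen presentation genes had medians of 0.52 in AD and 0.44 in ADP mice, with 2 of 8 genes opposite. H2-Eb1, which encodes a chain of MHC class II, was at 4.50, 4.16, 5.49 and 5.12 in ADP vehicle and at 5.81, 8.40, 6.86, 5.52 and 6.63 in treated ADP mice, which did not overlap, and its effects were 1.83 in ADP and 0.87 in AD mice. Its interaction of 0.96 (SE 0.787, adjusted p = 0.990 by limma) was 0.34 with sex in the model and 0.52 without replicate 2 of the treated ADP group. In NF-kB, Toll-like receptor and JAK-STAT signalling 4 of 16 genes were opposite, among them Stat6, a mediator of interleukin-4 signals (0.52 and -0.10, interaction -0.63, SE 0.385), and Traf6, an adaptor ligase (0.09 and -0.19). Tnf was at 0.53 and 0.28 and Il21r, the interleukin-21 receptor, at 0.17 and 0.42, with interaction SEs of 0.763 and 0.553.

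Shares of opposite signs in the 3 lists not yet described were below the 43% of all tested genes, with no test of that difference. Hypoxia and angiogenesis had 4 of 14 genes opposite (28.6%) and 11 interactions below 0, with Vegfa, the endothelial growth factor, at 0.00 and -0.30. Oxidative stress and glutathione had 6 of 17 (35.3%), with Prdx5, a peroxiredoxin, at 0.13 and -0.06 and Gpx4, which reduces lipid peroxides, at 0.14 and -0.01. NAD, tryptophan and monoamine metabolism had 2 of 9 (22.2%). There Afmid and Tdo2, tryptophan dioxygenase, consecutive enzymes of the kynurenine pathway, had interactions of 0.93 and -0.72 (SE 0.588). That of Tdo2 was -0.47 without replicate 3 and -1.21 without replicate 4 of the ADP vehicle group, and its effect in AD mice, -0.13, changed sign in 4 of 23 fits without 1 mouse. Over the 24 pathway lists the median interaction was below 0 in 20 and above 0 in 4, but it was below 0 in 14 and above 0 in 10 after quantile normalization, and below 0 in all 24 without replicate 5 of the AD vehicle group. In 7 lists the median effect, rounded to 2 decimals, was above 0 in AD and below 0 in ADP mice. The glycolysis and pentose phosphate lists, with medians of -0.00 in ADP mice, are not among them.

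**Figure D4:**
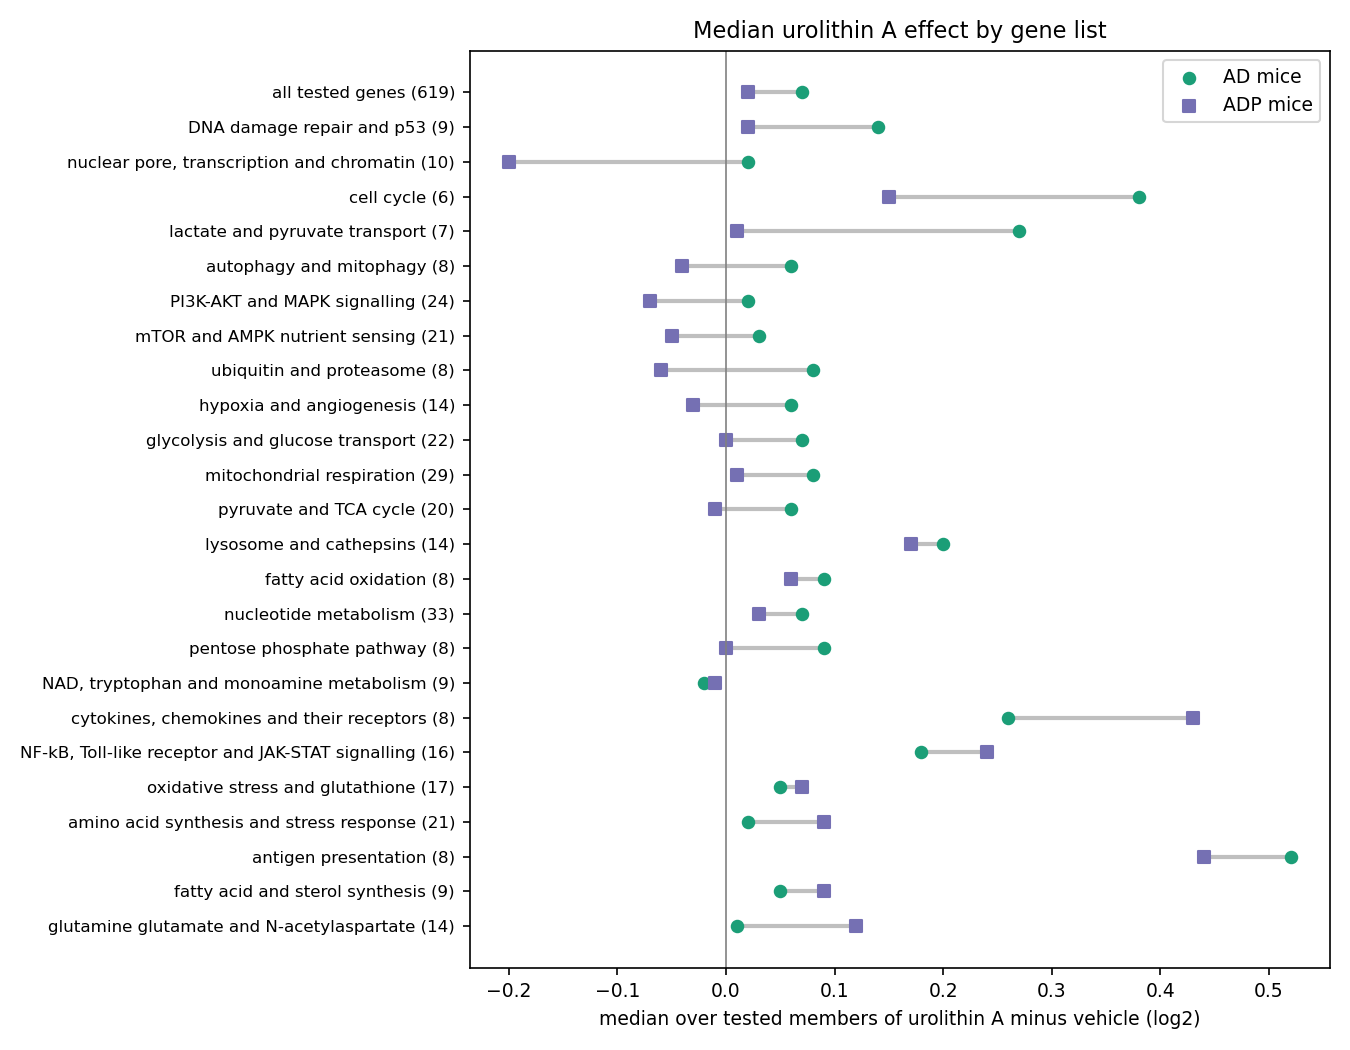
Median urolithin A effect (log2) over the tested members of each gene list in AD (circles) and ADP mice (squares), ordered by median interaction, with the number of tested members in brackets. The nuclear pore list has a median of 0.02 in AD and -0.20 in ADP mice, and cytokine, antigen presentation and lysosomal genes are above 0 in both genotypes.

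Treated and vehicle mice rarely separated fully. In AD mice 0 of 619 genes had treated and vehicle ranges that did not overlap (0% in either direction). In ADP mice 2 genes did not overlap and were higher with treatment (0.323%), H2-Eb1 and Tecr, and 6 were lower (0.969%), among them Glul, Kmt2d, a histone methyltransferase, and the kinase gene Pdpk1, named after their values were seen. No gene was without overlap in both genotypes. A looser count asked for all 5 treated AD mice above and all 5 treated ADP mice below their vehicle mean. On the values as deposited 3 of 619 genes met it: Slc16a7, Psma7 and Rbks. The reverse was found for 0 genes. In 7 genes all 10 treated mice were above their vehicle means, and in 2 genes none was. The 7, chosen after their values were seen, were Apoc2, Brcc3, Gadl1, Idh3a, Lepr, Ndufb11 and Sdhc. How many genes would meet such counts without any effect was not estimated. The genes with opposite effects of at least 0.3 log2 were also chosen after their values were seen. Cenpa, a centromere histone, was at 0.30 and -0.59, Gls2 at 0.52 and -0.33, Hsd11b1, which regenerates active glucocorticoid, at 0.46 and -0.61, and Ptgs2, the inducible cyclooxygenase, at 0.49 and -0.38. Pparg, a nuclear receptor of lipid genes, was at 0.83 and -0.22 (interaction -1.05, SE 0.469, adjusted p = 0.883 by limma). The 3 the other way were Apoa2, Nod2 and Slc2a5.

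Levels of markers of other cell types varied between mice, and leaving out single mice changed parts of these results. Of 12 choroid plexus markers 4 had values (Ttr, Folr1, Slc16a8 and Lepr), and their summed normalized counts were 139 to 2785 in AD vehicle, 129 to 9460 in treated AD, 125 to 5188 in ADP vehicle and 179 to 13187 in treated ADP mice. The ranges were wide in every group, and with the Ttr level in the model the interactions of Slc16a7 and Nat8l were -0.48 and -0.60. The 7 microglial markers with values, of 22 listed, had median effects of 0.34 and 0.25, with sums of 3491 to 13003 in AD vehicle, 3714 to 9583 in treated AD, 2975 to 11491 in ADP vehicle and 4962 to 9129 in treated ADP mice. The 7 tested T and NK cell markers had a median interaction of 0.39, which was -0.02 without both low-count mice. Summed levels of the 15 with values, of 18 listed, were 163 to 869 in AD vehicle and 176 to 445 in treated AD mice. They were 154 to 277 in ADP vehicle and 175 to 385 in treated ADP mice. Without replicate 5 of the AD vehicle group 50 genes, in place of 31, had an unadjusted p under 0.05, and none passed after adjustment (smallest adjusted p 0.458 by limma). Without replicate 1 or replicate 3 of the ADP vehicle group there were 18 and 20. Leaving out 1 mouse moved the interaction by over 1.5 times in 18 of the 58 genes named by the criteria used. The part of sex, cell makeup and depth in the differences was not tested beyond the alternatives named here and below.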

How the data were processed

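Hippocampal RNA of 23 mice was measured with the nCounter Metabolic Pathways panel. The deposited values are log2 normalized counts, which the authors made with nCounter Advanced Analysis, per the series' design text; the normalization genes, background step and software version are not given in the sources used here. Normalization relative to genes that themselves differ would shift all values of a mouse. At least 99.65% of the low values of each mouse lay on whole counts times 1 constant (tolerance 0.0125 log2, counts up to 40), from which totals of 186016 to 692109 were inferred; they limit the precision of low genes.

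One mean per group was fitted over all 23 mice in R 4.3.3, using limma 3.58.1 and its functions lmFit, contrasts.fit and eBayes (with trend), for genes with a normalized value of at least 20 in at least 4 mice. The interaction and both effects were contrasts, two-sided, with Benjamini-Hochberg adjustment over 619 genes and a threshold of 0.05. Tables and figures used Python 3.11.15, NumPy 2.4.6, pandas 2.3.3 and matplotlib 3.10.9. The fit was tested on simulated data. Effects in AD and in ADP mice share no mice.

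Named are, as none passed, the 10 genes of smallest p in each direction, the 8 genes in each direction with opposite effects whose smaller moderated t was largest, the 2 genes of smallest p in each pathway list with at least 5 tested members, Ttr and Mapt. Other genes, Gls2 and Pparg among them, were named after their values were seen. The members, lists and rules were chosen with earlier results of these data known. Values of some genes given by these criteria are left out here. Alternatives changed the scaling, filter, covariates, model and mice.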

Additional observations from a re-analysis of the deposited data

Results flagged for a closer look

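Over the 58 named genes, 20 of 290 groups of mice held a value separated from the others of its group by more than Dixon's 95% critical value, where chance flags about 1 in 20. All values are log2 normalized counts.

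Replicate 5 of the AD vehicle group held 5 of the 20. It was at 8.38 for Pik3cb, where the other 4 mice were at 8.48 to 8.50. It was high for Bcl2 at 6.96 (5.87 to 6.05), Nod2 at 5.10 (3.48 to 3.92), Rbks at 6.50 (5.02 to 5.29) and Echs1 at 9.06 (8.61 to 8.73). Other AD mice stood apart for Slc2a5, at 4.61 in vehicle replicate 4 (5.81 to 5.98) and 4.06 in treated replicate 3 (5.31 to 5.62). Cox8a was at 7.67 in vehicle replicate 1 (7.97 to 8.08) and 7.85 in treated replicate 2 (8.10 to 8.13), and Traf6 at 7.27 in treated replicate 4 (7.78 to 7.94). Ttr was at 11.28 in vehicle replicate 3 (5.87 to 7.08).

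Among ADP vehicle mice, replicate 1 was at 11.17 for Glud1 (11.47 to 11.51) and 10.72 for Tfrc (10.04 to 10.12), and replicate 4 at 11.62 for Prdx5 (11.84 to 11.86). Among treated ADP mice, replicate 5 was at 4.92 for Cd36 (5.66 to 5.88) and replicate 3 at 8.55 for Rps6kb1 (8.75 to 8.80), both mice of low inferred total. Replicate 2 was at 9.52 for Ncor1 (9.24 to 9.31) and 5.85 for Ttr (11.64 to 13.55). Wild-type replicate 3, which is not part of the interaction, was at 6.80 for Stat6 (5.96 to 6.05) and 9.71 for Psmb3 (9.88 to 9.90).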

How the results depend on the processing

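The interaction called 0 genes in each of the 23 fits that left out 1 mouse and the 14 other alternatives. The smallest adjusted p by limma over the fits without 1 mouse was 0.145 to 1. Leaving out 1 mouse gave a median interaction of -0.10 to -0.02 and 254 to 293 genes with opposite signs, and the other alternatives gave 229 with a filter of 50 to 324 with no filter. The effect in AD mice called 1 gene with array weights. At an unadjusted p under 0.05 there were 31 genes, 16 with median centring, 21 with quantile normalization, 20 with sex in the model and 78 with array weights. The median of the respiration list was 0.01 after quantile normalization, that of the lysosome list -0.43 with array weights, and that of the T and NK cell list -0.02 without both low-count mice; the cause was not tested. The interaction of Il21r, 0.25, was -0.32 with array weights and -0.10 to -0.12 without replicate 5 of the AD or replicate 1 of the ADP vehicle group, and it ranged from -0.12 to 0.48 over the fits without 1 mouse. That of Ttr, -0.48, was 0.32 without ADP vehicle replicate 3, 0.02, 0.45 and 0.20 without treated AD replicates 1, 3 and 5, and 0.88 without treated ADP replicate 2, over a range of -1.85 to 0.88. The deviations of same-numbered mice correlated at -0.39 to 0.55, over 0.1 in 12 of 18 pairs and below 0 in 3, and a mouse's own number gave its highest correlation in 14 of 36 comparisons with another group, so the numbers were not taken to pair the mice. With the replicate number as a block there were 0 calls, 35 genes at an unadjusted p under 0.05, 285 opposite signs and a median of -0.09. Centring on the panel's reference genes was not run, because those genes have no values in the table used. Low inferred totals in 2 treated ADP mice limit the low genes.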
